A study of Mus musculus with 17 samples.

Results

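The 46 genes described here encode E2F transcription factors, the pocket protein p107 and proteins that copy DNA in S phase. They were taken by symbol from a list chosen with earlier results of these data known and matched to Ensembl gene IDs. All 46 were found in both deposited tables. They are 46 of the 37576 genes of the table on immortalized cells and of the 33440 genes of the table on Ras-transformed cells. By role, 6 are E2F and pocket protein genes, 4 act in origin licensing, 6 are subunits of the MCM helicase and 6 activate that helicase. A further 8 encode polymerase and primase subunits, 7 belong to the sliding clamp, its loader and the joining of Okazaki fragments, 5 supply nucleotides and 4 act on new chromatin and histone messages.

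Entry into S phase is driven by E2F1, E2F2 and E2F3, which activate the genes for replication once cyclin-dependent kinases have released them from the retinoblastoma family of pocket proteins. E2F7 and E2F8 are themselves induced by E2F and then repress the same promoters, and p107, the product of Rbl1, is both a repressor partner of E2F and an E2F target. Origins are licensed when ORC, CDC6 and CDT1 load the MCM2 to MCM7 ring on DNA, and CDC45 and GINS then turn the ring into the active helicase. The genes are used as a common sign of proliferation in fibroblast cultures, because their messages are low in resting cells.

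RNA was sequenced from mouse embryonic fibroblasts taken at E13.5 on the C57BL/6 background, in 17 libraries. All groups carry a retroviral short hairpin RNA against p19ARF (shp19ARF), the agent of immortalization, so the wildtype controls carry it too. The immortalized set has 3 libraries, described as biological replicates, for each Usp28 genotype: wildtype (+/+), heterozygous (+/-) and deleted (-/-). In the Ras set there are 4 groups of 2 libraries, and all 4 carry HRasG12V, an activated form of the small GTPase HRas that transforms cells. The Ras +/+, +/- and -/- groups also carry a GFP vector, and the fourth group is +/+ with a vector for USP28, a deubiquitinase, in place of GFP. Whether the libraries of a Ras group came from separate cultures, and whether a group goes back to 1 embryo or several, is not given in the sources used here, so the p-values measure only the spread between these libraries. The comparisons with +/+ ask how groups that lack 1 or both alleles, or have extra USP28, differ from the +/+ group of their own set.

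The deposited tables hold comparisons and no values for single libraries, so each level below is that of a group, in reads scaled to 1000000 (RPM), and no spread between libraries can be given for a gene. The effective depth of a group, inferred from the step of 1 read between low levels, was 11.36 to 13.95 M reads (M, 1000000). The authors' p-values imply a variation between libraries (coefficient of variation, 1 value for all genes of a comparison) of 21.1% in the comparison of immortalized -/- with +/+ and 32.4% in that of immortalized +/-. In the Ras set it was lower, at 14.4% (-/-), 14.2% (+/-) and 12.6% (USP28 vector). The standard error (SE) and 95% interval beside a log2 ratio are implied by that value and the reads, and are too small for genes that vary more between cultures. A gene is called higher or lower when its deposited p, adjusted by Benjamini and Hochberg's method over every gene whose mean was 1 RPM or more, is under 0.05. All 46 genes passed that minimum in every comparison.

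Some properties of the cultures bear on every comparison. Usp28 messages were present in all groups, at 16.5 RPM in +/+, 9.96 RPM in +/- and 13.3 RPM in -/- of the immortalized set and at 26.5, 18.6 and 14.8 RPM in the same order of the Ras set, so its message does not check the labels. Fibroblast markers summed to 36500 to 45100 RPM in the immortalized groups and to 9770 to 17600 RPM in the Ras groups, where Fap was at 0 reads in +/+ and Thy1 at 0 in +/- and with the USP28 vector. Markers of simple epithelium and mesothelium summed to 1710 RPM in immortalized +/- against 73.8 RPM in +/+, and to 2580 RPM in Ras +/- against 497 RPM in Ras +/+ and 7.45 RPM in Ras -/-. Leukocyte markers summed to 13.1 to 25.3 RPM and endothelial markers to 4.09 to 19.4 RPM. The groups also differed in sex-linked genes: Xist stood at 336 RPM in Ras +/+ and 0.215 RPM in Ras -/-, and the Y-linked Eif2s3y at 0 and 22.4 RPM. In the immortalized set Xist stood at 89.5 RPM in +/+, 296 RPM in +/- and 126 RPM in -/-, and Eif2s3y at 18.6, 0 and 14.9 RPM. The groups of a genotype thus differed in these genes between the sets as well. Their part in the results below was not tested. In bulk RNA, fewer cycling cells and less message per cycling cell cannot be told apart.

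Promoter sequence was read for the members to show how many carry a classical E2F element. RefSeq's promoter table (GRCm38.p6) held 39 of the 46 genes and had no entry for Gins1, Gins2, Gins4, Mcm4, Pole, Prim2 and Rfc2. The words searched on both strands were TTTCCCGC, TTTGGCGC, TTTGCCGC and TTTCGCGC, within the 250 bases before the start site, and hits may overlap each other. Some genes have more than 1 listed start site, and a gene was counted if any of its sites had a word. At least 1 of the 4 words was present in 12 of the 39 genes (30.8%), against 583 of all 27025 genes in the table (2.16%). The 12 were E2f3, E2f7 and Rbl1 among the regulators, Orc1 and Cdc6 of licensing, Mcm5, Mcm6 and Mcm7 of the helicase, and Gins3, Pola1, Rfc3 and Uhrf1. A match is a description of the sequence and not a measured binding site.

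The promoters of 4 regulators or licensing genes that were called in the Ras set and hold a word are shown with that of Rrm2, which was also called there and holds none, as none of the 5 nucleotide supply genes did. Each sequence is the 250 bases before the start, 5′ to 3′ on the gene's strand, and capitals mark the word or its reverse complement. E2f3 has 2 listed start sites, and the one that holds a word is shown. They lie at chr10:110745189-110745438 (E2f7, plus strand), chr2:157204535-157204784 (Rbl1, minus), chr13:29986064-29986313 (E2f3, minus), chr4:108579204-108579453 (Orc1, plus) and chr12:24708004-24708253 (Rrm2, plus).
E2f7: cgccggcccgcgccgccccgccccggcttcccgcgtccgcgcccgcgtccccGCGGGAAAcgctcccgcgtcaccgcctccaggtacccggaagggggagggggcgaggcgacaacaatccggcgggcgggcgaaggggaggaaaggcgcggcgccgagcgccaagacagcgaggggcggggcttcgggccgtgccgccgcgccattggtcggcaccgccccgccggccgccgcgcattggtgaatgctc
Rbl1: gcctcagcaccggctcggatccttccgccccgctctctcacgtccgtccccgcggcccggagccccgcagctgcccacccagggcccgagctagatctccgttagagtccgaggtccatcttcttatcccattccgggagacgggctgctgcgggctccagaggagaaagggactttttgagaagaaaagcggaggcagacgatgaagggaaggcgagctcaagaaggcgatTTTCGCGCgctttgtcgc
E2f3: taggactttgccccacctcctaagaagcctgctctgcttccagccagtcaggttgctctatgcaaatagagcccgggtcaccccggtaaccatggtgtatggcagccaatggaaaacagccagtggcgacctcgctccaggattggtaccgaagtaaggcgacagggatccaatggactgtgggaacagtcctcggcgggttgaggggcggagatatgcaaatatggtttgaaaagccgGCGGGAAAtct
Orc1: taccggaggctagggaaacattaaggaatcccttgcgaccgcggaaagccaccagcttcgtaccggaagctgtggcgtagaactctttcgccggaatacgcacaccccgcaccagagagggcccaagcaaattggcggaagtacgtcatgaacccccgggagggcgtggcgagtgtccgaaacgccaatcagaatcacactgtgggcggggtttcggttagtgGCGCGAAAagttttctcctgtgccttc
Rrm2: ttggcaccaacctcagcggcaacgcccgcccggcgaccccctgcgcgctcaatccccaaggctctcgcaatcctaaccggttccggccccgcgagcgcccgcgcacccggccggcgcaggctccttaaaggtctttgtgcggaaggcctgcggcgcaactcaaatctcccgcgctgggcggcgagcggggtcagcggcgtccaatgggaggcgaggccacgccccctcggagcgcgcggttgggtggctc
Counted back from -1 at the base before the start, the word spans -198 to -191 in E2f7. It lies nearer the start in Orc1 (-27 to -20), Rbl1 (-18 to -11) and E2f3 (-11 to -4). The letters in E2f7 and E2f3 are the same, the reverse complement of TTTCCCGC. Those of Rbl1 and Orc1 are TTTCGCGC and its reverse complement.

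Levels of different genes were set side by side only per length, as RPM per kilobase (kb) of the exons annotated for GRCm38, while the reads were aligned to mm9. On that scale E2f2, which encodes an activating E2F, was the lowest of the 46 genes in all 7 groups, at 0.605 to 2.67 RPM per kb. The highest was Rrm2, the regulated subunit of ribonucleotide reductase, in immortalized +/+ at 78.6 RPM per kb and in Ras +/+ at 115 RPM per kb. Rrm1, the other subunit, led in immortalized +/- at 53.1, Tk1, thymidine kinase, in Ras -/- at 89.1 and Pcna, the sliding clamp, in Ras +/- at 121 RPM per kb. The 6 subunits of the MCM ring lay between 28.4 RPM per kb for Mcm6 and 47.0 for Mcm5 in immortalized +/+, a ratio of 1.65. In Ras +/+ they spread from 39.2 for Mcm6 to 75.8 for Mcm5, a ratio of 1.93. The spread in Ras +/- was close to that, from 43.5 for Mcm6 to 87.3 for Mcm5, a ratio of 2.01. With the USP28 vector the ratio was 1.65, and in Ras -/- it was 1.36, from 42.4 to 57.8.

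**Figure D1:**
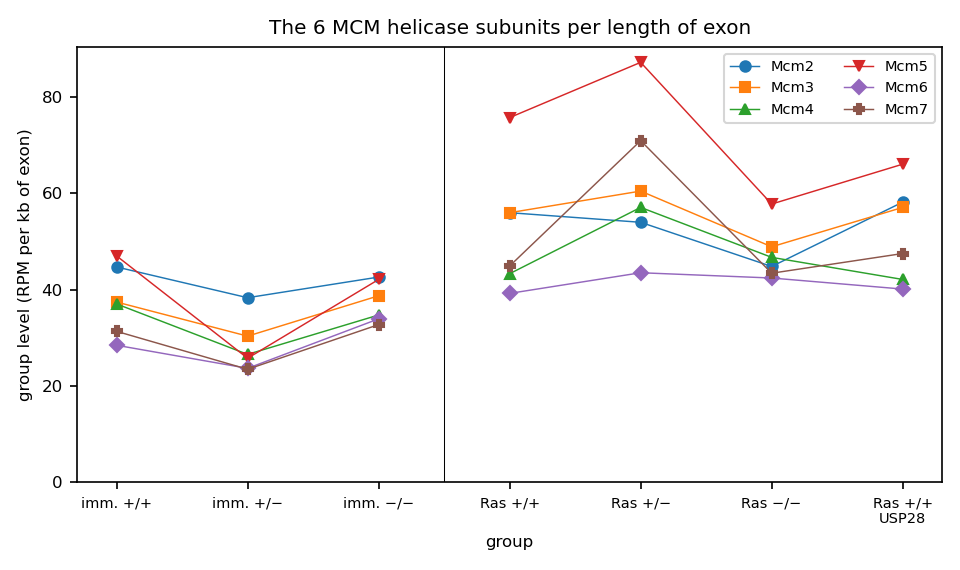
Group levels of the 6 MCM subunits in RPM per kb of exon, for the 3 immortalized groups (left) and the 4 Ras groups (right); lines join the groups of a set for reading only, and the sets were normalized apart. In the immortalized set all 6 subunits have their lowest level in +/-, and Mcm7 has its highest level of all groups in Ras +/-.

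In immortalized -/- cells the replication genes stood close to +/+. None of the 46 was called by the authors' edgeR test in either direction, where 4.21% of all genes were, 1.29% higher and 2.93% lower. Below 0 were 20 of the 46, against 42.8% of all genes. At an unadjusted p under 0.05 there were 2, against 14.3% of all genes. The median log2 ratio of the 46 was 0.04 and that of all genes 0.07. The 95% interval of 43 of the 46 lay within a log2 ratio of -1 to 1, and that of none within -0.5 to 0.5, so smaller changes were not detectable at this spread.

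Orc1, the subunit of the origin recognition complex that cycles in abundance, had the highest ratio, with 10.6 RPM in +/+ and 16.3 RPM in -/- (log2 ratio 0.62, SE 0.30, adjusted p = 0.302). Rrm1 came next, at 182 and 274 RPM (0.59, SE 0.25, adjusted p = 0.204), and these were the genes with an unadjusted p under 0.05. All 5 nucleotide supply genes lay above 0, with a median of 0.33, from 0.20 for Dut, the dUTPase, to the value for Rrm1. The lowest ratios were those of Cdt1, the licensing factor that loads MCM, at 40.7 and 32.1 RPM, and of E2f1 at 87.6 and 69.1 RPM, each with a log2 ratio of -0.34 (SE 0.27 and 0.26). Among the other regulators, E2f2 measured 3.32 and 2.87 RPM (-0.21), E2f3 41.7 and 44.6 RPM (0.10), E2f7 55.6 and 57.7 RPM (0.05) and E2f8 26.3 and 28.8 RPM (0.13). Rbl1 had 36.8 RPM in +/+ and 50.8 RPM in -/- (0.47, SE 0.27, adjusted p = 0.433). No regulator therefore passed the test.

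Some genes of G2 and mitosis were higher in the same cells. Of 8 G2 and mitosis genes, 3 were called higher and the median was 0.73, with Mki67, the Ki-67 antigen, at 165 RPM in +/+ and 289 RPM in -/-, and Cenpe and Cenpf, of the kinetochore, at 38.5 and 79.5 RPM and at 31.0 and 62.0 RPM. The 8 summed to 555 RPM in +/+ and 888 RPM in -/-. Among 65 other genes of the replication and E2F pathways, none was called, 5 had an unadjusted p under 0.05, 16 lay below 0 and the median was 0.17.

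In immortalized +/- cells nearly all of the genes were lower than in +/+, but no gene passed the test by itself. The ratio was below 0 for 43 of the 46, where 50.2% of all genes tested lay below 0, and the median was -0.53 against 0.00 for all genes. The interquartile range of the members ran from -0.69 to -0.28. None of the 46 was called by the authors' edgeR test, where 8.25% of all genes were, 5.04% higher and 3.21% lower, and 6 had an unadjusted p under 0.05, against 14.4% of all genes. The genes are regulated together in the cell cycle and are not independent of each other, and this comparison had the largest variation between libraries. The implied SE was 0.38 to 0.48, and only 6 of the 46 intervals lay within -1 to 1.

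**Figure D2:**
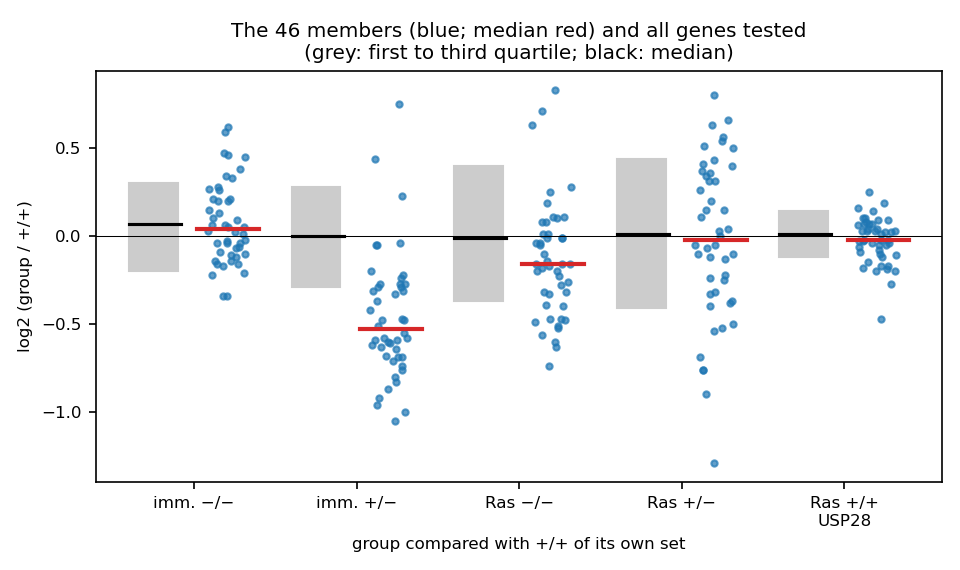
Log2 ratio to +/+ of each of the 46 genes (blue points, red line the median) beside the interquartile range of all genes tested (grey box, black line the median) for the 5 comparisons. The median of the 46 lies at -0.53 in immortalized +/-, and between -0.16 and 0.04 in the other 4.

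The lowest ratio was that of Cdc45, a part of the active helicase, which measured 40.8 RPM in +/+ and 19.8 RPM in +/- (log2 ratio -1.05, SE 0.40, adjusted p = 0.0947). Next came Lig1, the ligase that joins Okazaki fragments, at 84.4 and 42.1 RPM (-1.0, SE 0.39, adjusted p = 0.105). Uhrf1, which guides DNA methylation after replication, had 109 and 55.8 RPM (-0.96, adjusted p = 0.13), and Rfc4, of the clamp loader, 10.3 and 5.45 RPM (-0.92, adjusted p = 0.28). These 4 had the lowest ratios of the 46 genes. By role, all 6 MCM genes lay below 0 (median -0.36), as did all 6 helicase activators (-0.55), all 8 polymerase and primase genes (-0.58) and all 7 clamp and Okazaki fragment genes (-0.69). The 4 licensing genes (median -0.27) and the 4 chromatin genes (-0.58) did so as well.

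The 3 genes above 0 were E2f2, E2f3 and Rrm1. E2f2 had the highest ratio of the 46, with 3.32 RPM in +/+ and 5.57 RPM in +/- (log2 ratio 0.75, SE 0.48, adjusted p = 0.619). E2f3 had 41.7 and 56.6 RPM (0.44, SE 0.39, adjusted p = 0.87), and Rrm1 182 and 212 RPM (0.23). The other regulators lay below 0: E2f1 at 87.6 and 57.3 RPM (-0.61), E2f7 at 55.6 and 32.8 RPM (-0.76), E2f8 at 26.3 and 14.8 RPM (-0.83) and Rbl1 at 36.8 and 30.4 RPM (-0.27). Of these none was called, and the adjusted p was 0.313 to 1.

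The other pathway genes and the mitosis genes lay on the same side. Of the 65 other pathway genes, 47 were below 0 with a median of -0.30, none was called and 7 had an unadjusted p under 0.05. All 8 G2 and mitosis genes were below 0, with a median of -0.60, none was called and 3 had an unadjusted p under 0.05. They summed to 555 RPM in +/+ and 343 RPM in +/-. In the same comparison the mesothelial marker Upk3b went from 1.95 to 508 RPM and Xist from 89.5 to 296 RPM. The part of these differences between the cultures in the lower replication genes was not tested.

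Immortalized -/- and +/- were set against each other in an approximate Wald test on the reads of the 2 groups, with the dispersions of both comparisons given to each group, an upper bound of the error at a common dispersion. It called none of the 46, where 3.46% of all genes were called, 1.27% higher and 2.19% lower. At an unadjusted p under 0.05 there were 4 members, against 9.07% of all genes. The ratio was above 0 for 43 of the 46, where 42.0% of all genes lay below 0, and the median was 0.60 against 0.07 for all genes. Tk1 had the highest ratio, with 101 RPM in -/- and 48.2 RPM in +/- (log2 1.07, SE 0.46, adjusted p = 0.301). E2f2 had the lowest, with 2.87 and 5.57 RPM (-0.95, SE 0.55, adjusted p = 0.735). With each group at the dispersion of its own comparison, chosen after the data were seen, 2 of the 46 were called higher in -/-, Tk1 (SE 0.33, adjusted p = 0.0203) and Lig1 (log2 1.07, SE 0.33, adjusted p = 0.0216), where 7.29% of all genes were called, 3.37% higher and 3.92% lower. No member was called lower. The ratio of -/- to +/- and that of +/- to +/+ rest on the same +/- libraries and are no independent support of each other.

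In Ras -/- cells a few of the genes changed in each direction, and fewer than among all genes. Of the 46, 2 were called higher and 3 lower (10.9%), where 27.6% of all genes were called, 15.2% higher and 12.4% lower. The ratio was below 0 for 33 of the 46 against 50.5% of all genes, and the median was -0.16 against -0.01. The 95% interval of 39 of the 46 lay within -1 to 1.

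The largest rise was in Prim1, the catalytic subunit of the primase that starts every new DNA strand. It measured 59.9 RPM in Ras +/+ and 107 RPM in Ras -/-, beside 45.3 RPM in Ras +/- and 57.9 RPM with the USP28 vector. The -/- group therefore stood above the 3 others (log2 ratio to +/+ 0.83, SE 0.22, adjusted p = 0.00095). Its partner Prim2 did not follow, with 58.3 and 41.9 RPM (-0.48, SE 0.22, adjusted p = 0.098), and neither did the polymerase alpha genes Pola1 (84.5 and 72.1 RPM, -0.23) and Pola2 (69.8 and 60.9 RPM, -0.20). E2f3 was the other gene that rose, from 50.9 RPM to 83.1 RPM (0.71, SE 0.22, adjusted p = 0.00742). It stood at 47.5 RPM in Ras +/- and 47.1 RPM with the vector, so the -/- group was again the high one.

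Orc6, the smallest subunit of the origin recognition complex, fell furthest, from 84.7 RPM in +/+ to 50.8 RPM in -/- (log2 ratio -0.74, SE 0.22, adjusted p = 0.00475). Its levels in Ras +/- and with the USP28 vector were 77.7 and 74.2 RPM, both nearer to +/+. Slbp, which binds the stem-loop of histone messages, fell from 87.4 to 56.3 RPM (-0.63, SE 0.22, adjusted p = 0.0175). Rrm2 fell from 251 to 165 RPM (-0.60, SE 0.21, adjusted p = 0.0192). All 4 licensing genes, all 5 nucleotide supply genes and all 4 chromatin genes lay below 0, with medians of -0.49, -0.16 and -0.33. Of the regulators besides E2f3, E2f1 measured 68.4 and 69.0 RPM (0.01) and E2f8 47.2 and 45.9 RPM (-0.04). Rbl1 measured 85.9 and 91.8 RPM (0.10), E2f7 130 and 104 RPM (-0.33, adjusted p = 0.269) and E2f2 7.24 and 11.2 RPM (0.63, adjusted p = 0.0966).

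The 65 other pathway genes held 2 that were called higher and 9 lower (16.9%), a share below the 27.6% of all genes, and their median was -0.18. Those named here were picked after their values were seen. E2f4, a repressor E2F that works with pocket proteins, fell from 191 to 82.3 RPM (log2 ratio -1.21, SE 0.21, adjusted p = 2.6e-07). Mybl2, an E2F target and the activating partner of the MuvB complex, fell from 104 to 54.6 RPM (-0.94), and Asf1b, a histone chaperone, from 49.1 to 23.1 RPM (-1.09). The 2 that rose were Timeless, of the fork protection complex (62.4 to 98.8 RPM, 0.66), and Pole4, a subunit of polymerase epsilon (32.3 to 48.4 RPM, 0.58). Of the 8 G2 and mitosis genes, 2 were called higher and the median was 0.16, and they summed to 1200 RPM in +/+ and 1370 RPM in -/-.

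In Ras +/- cells E2f7, E2f8, Rbl1, Orc1, Slbp and Rrm2 fell, and E2f2, Mcm7, Chaf1b, Gins1 and Pold2 rose. Of the 46, 5 were called higher and 6 lower (23.9%), a share below that of all genes, of which 34.1% were called, 17.5% higher and 16.7% lower. The median was -0.02 against 0.01 for all genes, and 23 of the 46 lay below 0, as did 49.3% of all genes. The 46 genes thus had no common direction. The E2F and pocket protein genes had a median of -0.60 while the helicase activators had one of 0.31 and the MCM genes one of 0.18.

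E2f7 fell furthest. It measured 130 RPM in Ras +/+, 53.4 RPM in +/-, 104 RPM in -/- and 117 RPM with the USP28 vector. The +/- group was the low one (log2 ratio -1.29, SE 0.22, adjusted p = 3.1e-08). E2f8, its close relative, fell from 47.2 to 27.9 RPM (-0.76, SE 0.23, adjusted p = 0.00367), with 45.9 and 47.7 RPM in the other groups. Rbl1 fell from 85.9 to 53.4 RPM (-0.69, SE 0.22, adjusted p = 0.00652), with 91.8 RPM in -/- and 86.4 RPM with the vector. In E2f7, E2f8 and Rbl1 alike the +/- level was the lowest of the 4 Ras groups. E2f1 had 68.4 RPM in +/+ and 47.6 RPM in +/- (-0.52, SE 0.22, adjusted p = 0.0501), just outside the threshold. E2f3 measured 50.9 and 47.5 RPM (-0.10, adjusted p = 0.782). E2f2 was the regulator that rose, from 7.24 to 12.6 RPM (0.80, SE 0.28, adjusted p = 0.0147).

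**Figure D3:**
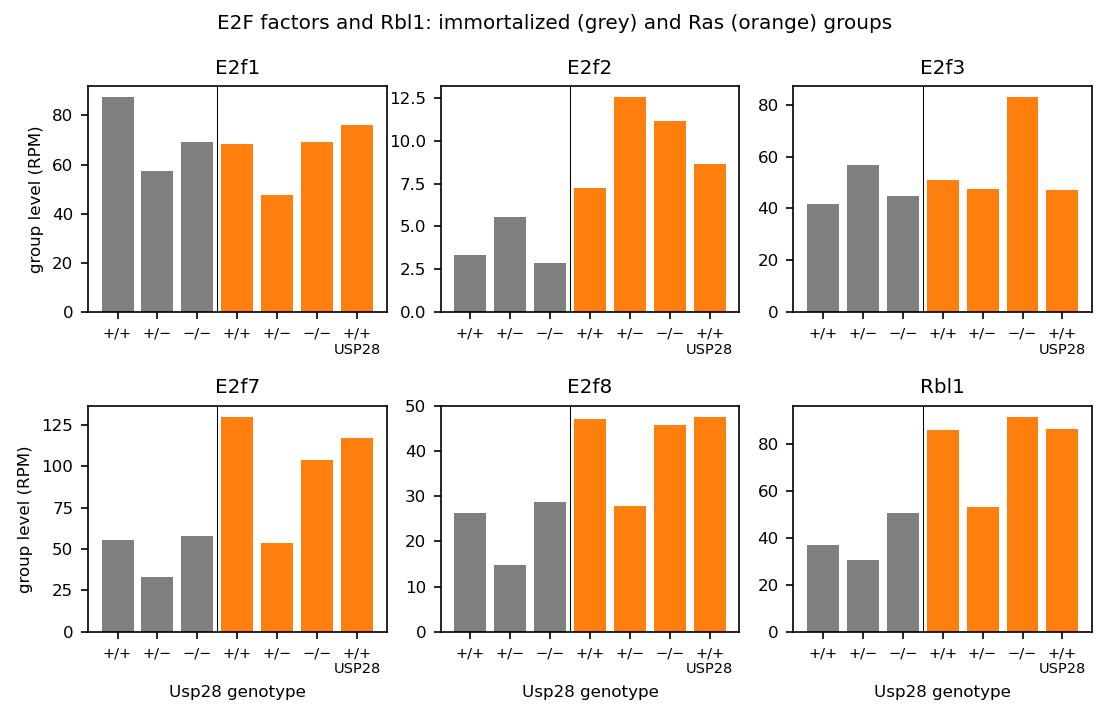
Group level in RPM (bars from 0, no error as no values of single libraries were used) of E2f1, E2f2, E2f3, E2f7, E2f8 and Rbl1 by Usp28 genotype, immortalized in grey and Ras in orange; each panel has its own axis and the sets were normalized apart. E2f7 is at 53.4 RPM in Ras +/- and at 104 to 130 RPM in the other Ras groups, and E2f3 is highest in Ras -/-, at 83.1 RPM.

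Orc1 fell from 44.6 RPM in Ras +/+ to 23.9 RPM in +/- (log2 ratio -0.90, SE 0.23, adjusted p = 0.00055). Slbp fell from 87.4 to 51.7 RPM (-0.76, SE 0.22, adjusted p = 0.0024), and Rrm2 from 251 to 173 RPM (-0.54, SE 0.21, adjusted p = 0.032). Slbp and Rrm2 were thus called lower in Ras -/- and in Ras +/-, comparisons that share the Ras +/+ libraries. By the authors' own adjusted p of the edgeR test, Rrm2 in Ras +/- was at 0.068 and would not be called. Mcm7, of the helicase ring, rose from 133 to 210 RPM (0.66, SE 0.21, adjusted p = 0.00686), with 129 RPM in -/- and 141 RPM with the vector, so that +/- stood alone. The 5 other MCM genes were not called, with ratios from -0.05 for Mcm2 to 0.40 for Mcm4. Chaf1b, of the chromatin assembly factor, rose from 41.7 to 64.5 RPM (0.63, SE 0.22, adjusted p = 0.0164), while its partner Chaf1a had 133 and 112 RPM (-0.25, adjusted p = 0.385). Gins1, of the GINS complex, rose from 25.6 to 37.8 RPM (0.56, SE 0.23, adjusted p = 0.045), and Pold2, of polymerase delta, from 54.1 to 78.5 RPM (0.54, SE 0.22, adjusted p = 0.0416). These last calls lay close to the threshold and were lost without the filter on level, as the adjusted p then passed 0.05. They were also lost by the authors' own adjusted p, at 0.0954 for Gins1 and 0.0884 for Pold2.

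**Figure D4:**
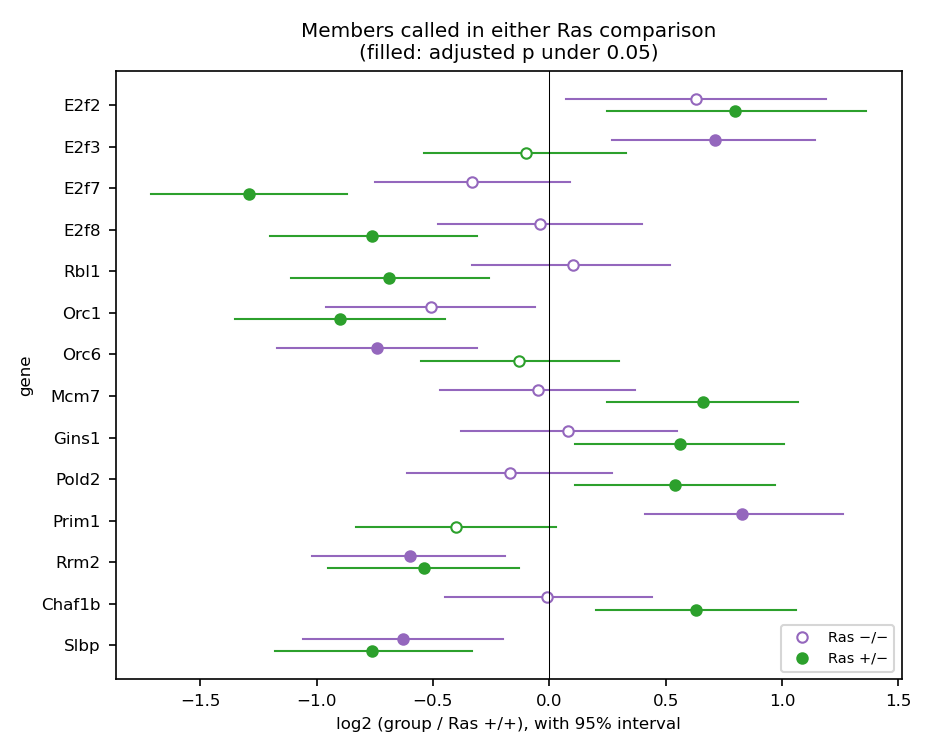
Log2 ratio to Ras +/+ with its implied 95% interval for the 14 members called in Ras -/- (purple) or Ras +/- (green); filled points have an adjusted p under 0.05. Rrm2 and Slbp are filled and below 0 in both, while Prim1 is at 0.83 in -/- and -0.40 in +/-, and E2f7 at -0.33 and -1.29.

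Of the members called in Ras -/- or Ras +/-, Orc1 (11.9%), E2f8 (15.7%), Slbp (14.4%), Mcm7 (10.8%) and Orc6 (7.1%) share that part of their exon bases with a gene on the opposite strand. Of the members named for other comparisons, so do Fen1 (78.8%), Gins2 (70.7%), Chaf1a (33.6%) and Rfc4 (13.4%). The shares of Lig1 (6.2%), Tk1 (5.8%), Cdc45 (2.4%) and Pole (1.1%) are smaller. Whether the authors' counting used strand is not given in the sources used here, so reads of the partner could be included.

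Among the 65 other pathway genes, Ras +/- had 9 higher and 12 lower by the test (32.3%), a share near the 34.1% of all genes, around a median of -0.13. Genes named from that list were picked after their values were seen. Rb1, the retinoblastoma protein, fell from 46.5 to 17.7 RPM (log2 ratio -1.39, SE 0.23, adjusted p = 3.6e-08), and Tfdp2, a dimer partner of E2F, rose from 27.2 to 65.8 RPM (1.27, adjusted p = 2.3e-07). Ccna2, the S phase cyclin A2, fell from 217 to 103 RPM (-1.07, adjusted p = 3.5e-06), and Fbxo5, an inhibitor of the anaphase-promoting complex and an E2F target, from 73.3 to 38.0 RPM (-0.95). Of the 6 ORC subunits, Orc1, Orc2 (101 to 56.6 RPM, -0.83) and Orc4 (64.5 to 41.5 RPM, -0.64) fell. The other 3 were not called: Orc3 had 44.9 and 33.4 RPM (-0.43, adjusted p = 0.136), Orc5 79.2 and 83.0 RPM (0.07, adjusted p = 0.85) and Orc6 84.7 and 77.7 RPM (-0.13, adjusted p = 0.714). Of the 8 G2 and mitosis genes, 1 was called lower, 7 lay below 0 and the median was -0.22, and they summed to 1200 RPM in +/+ and 961 RPM in +/-. Upk3b went from 0.264 to 677 RPM in the same comparison and Xist from 336 to 25.5 RPM. Cdkn2a, whose locus encodes p16INK4a and p19ARF, went from 12.9 to 56.8 RPM (2.13, adjusted p = 7.8e-17). In the immortalized set Cdkn2a was at 119 RPM in +/+, 221 RPM in +/- (0.89, adjusted p = 0.185) and 117 RPM in -/-. The part of these differences in the calls was not tested.

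The Ras -/- and +/- groups were also tested against each other by the same Wald test, again with the dispersions of both comparisons given to each group. Of the 46, 4 were called higher in -/- and 1 lower, where 20.9% of all genes were called, 11.4% higher and 9.54% lower. The members as a whole did not lean the way of these calls. The median log2 ratio was -0.19 against -0.01 for all genes. The interquartile range was -0.47 to 0.15 for the members and -0.41 to 0.43 for all genes. Prim1 was higher in -/-, with 107 against 45.3 RPM (log2 1.23, SE 0.30, adjusted p = 0.00044). So were E2f7 (104 against 53.4 RPM, 0.96, adjusted p = 0.00942), E2f3 (83.1 against 47.5 RPM, 0.81, adjusted p = 0.0378) and Rbl1 (91.8 against 53.4 RPM, 0.78, adjusted p = 0.0453). Gins4, of the GINS complex, was lower in -/-, with 29.7 against 62.6 RPM (-1.07, SE 0.30, adjusted p = 0.00353). Ras +/+ lay between them at 43.9 RPM, with ratios to +/+ of -0.56 in -/- and 0.51 in +/- that were not called (adjusted p = 0.0532 and 0.0578). The difference was not called for E2f8 (0.72, adjusted p = 0.0811), E2f1 (0.54, adjusted p = 0.214) and E2f2 (-0.18, adjusted p = 0.776). With a doubled dispersion 4 of the 5 calls were lost, all but that of Prim1, and without the filter on level those of E2f3 and Rbl1 were lost.

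With each group at the dispersion of its own comparison, chosen after the data were seen, the SE of Prim1 was 0.22 in place of 0.30 and 17 of the 46 were called, 6 higher and 11 lower in -/-. Of all genes 33.7% were then called, 17.6% higher and 16.1% lower. The 6 higher were Prim1, E2f7, E2f3, Rbl1, E2f8 (adjusted p = 0.00714) and E2f1 (adjusted p = 0.045). Lower in -/- were Gins4, Mcm7 (129 against 210 RPM, -0.71, SE 0.21, adjusted p = 0.00377), Pold2, Pola2, Fen1, Chaf1b, Pcna, Orc6, Mcm5, Gins2 and Dut. The count of calls between these groups thus depends on the error given to them. The groups also differ in Xist, at 0.215 RPM in -/- and 25.5 RPM in +/-, in Eif2s3y, at 22.4 and 0.151 RPM, and in the epithelial and mesothelial markers, at 7.45 and 2580 RPM, whose part was not tested.

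With the USP28 vector the genes stayed near their level in Ras +/+ with GFP. None of the 46 was called by the authors' edgeR test, where 1.09% of all genes were, 0.0907% higher and 0.997% lower, and 1 had an unadjusted p under 0.05, against 4.53% of all genes. Below 0 were 24 of the 46, against 47.4% of all genes, and the median was -0.02 against 0.01 for all genes. The 95% interval lay within -1 to 1 for all 46 genes and within -0.5 to 0.5 for 30 of them, which bounds any change more tightly than in the other comparisons. The lowest ratio was that of Gins3, of the GINS complex, with 28.2 and 20.3 RPM (log2 ratio -0.47, SE 0.22, adjusted p = 0.939), and the highest that of E2f2, with 7.24 and 8.64 RPM (0.25, SE 0.28, adjusted p = 1). The other regulators had ratios of 0.16 for E2f1, -0.11 for E2f3, -0.15 for E2f7, 0.02 for E2f8 and 0.01 for Rbl1. Of the 65 other pathway genes none was called, 0 had an unadjusted p under 0.05 and the median was -0.04. The mouse Usp28 message was at 26.5 RPM with GFP and 26.4 RPM with the vector, and the message made from the vector was not measured here.

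**Figure D5:**
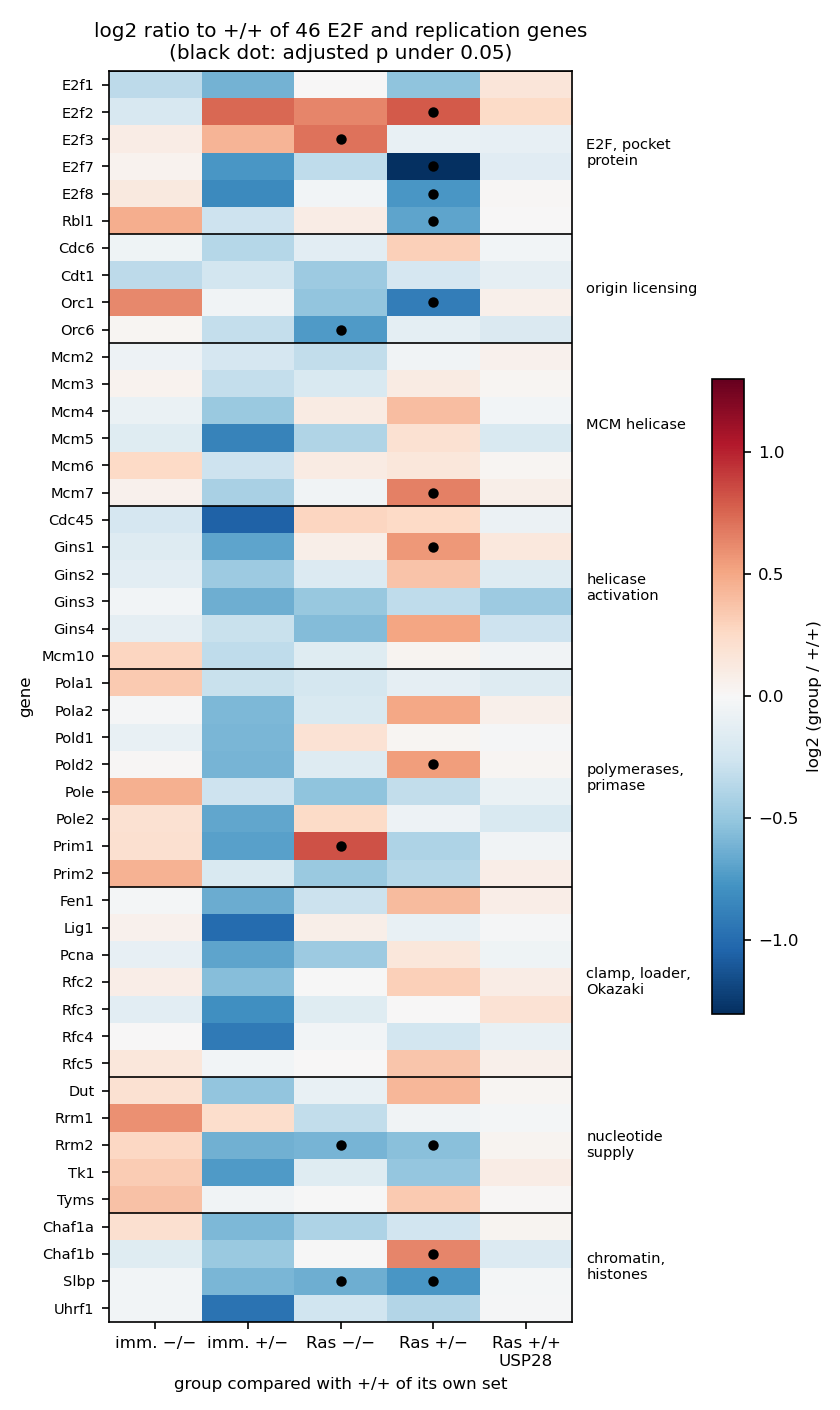
Log2 ratio to +/+ of the same set for the 46 genes (rows, grouped by role) in the 5 comparisons (columns); blue is lower, red is higher and a black dot marks an adjusted p under 0.05. The immortalized +/- column is blue in 43 of 46 rows without a dot, Ras -/- has 5 dots, Ras +/- has 11 and the USP28 vector none.

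Whether the genotype ratio itself differed between the Ras and the immortalized set was tested gene by gene, each ratio taken within its own table. For -/- the ratio was lower in the Ras set for 5 members and higher for none, where 20.7% of all genes were called, 11.4% higher and 9.24% lower. The 5 were Orc1 (difference of log2 ratios -1.13, SE 0.38, adjusted p = 0.0168), Pole (-0.98, SE 0.34, adjusted p = 0.0251), Prim2 (-0.92, SE 0.35, adjusted p = 0.0424), Rrm1 (-0.91, SE 0.33, adjusted p = 0.0302) and Rrm2 (-0.88, SE 0.33, adjusted p = 0.0405). Each of them had a ratio above 0 in immortalized -/- and below 0 in Ras -/-, a pattern that picking genes by this difference favours. Of these ratios to +/+, only that of Rrm2 in Ras -/- was itself called. Orc1 measured 10.6 RPM in +/+ and 16.3 RPM in -/- of the immortalized set, and 44.6 and 31.3 RPM in the Ras set. Pole, the catalytic subunit of polymerase epsilon, measured 37.4 and 51.4 RPM in the immortalized set and 92.3 and 64.3 RPM in the Ras set. The median difference of the 46 was -0.20, against -0.10 for all genes, and with the ratios centred on the median gene of each comparison 1 of the 5 calls was left. E2f2 had the highest difference, at 0.83 (adjusted p = 0.261).

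For +/- the ratio was higher in the Ras set for 1 member and lower for none, where 13.3% of all genes were called, 6.88% higher and 6.46% lower. It was Cdc45, whose ratio was -1.05 in the immortalized and 0.26 in the Ras set (40.8 to 19.8 RPM and 42.5 to 50.7 RPM; difference 1.30, SE 0.46, adjusted p = 0.0353). The median difference of the 46 was 0.41, against 0.04 for all genes, and 38 of the 46 were above 0, where 47.8% of all genes lay below it. Orc1 had the lowest, at -0.84 (adjusted p = 0.284).

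Levels of the sets stand side by side without a test, because the tables were normalized apart. In +/+ cells 42 of the 46 genes had a higher level in the Ras set, and 39 had a ratio above the median of all genes. The median log2 ratio was 0.69 against 0.17 for all 14626 genes at 1 RPM or more in both. Orc1 had the highest, from 10.6 RPM in the immortalized to 44.6 RPM in the Ras set, and Gins2, of the GINS complex, the lowest, from 78.1 to 57.2 RPM. Gins2 shares 70.7% of its exon bases with Gse1 on the opposite strand, so its reads may be those of Gse1. In +/- cells the median was 1.20 and in -/- cells 0.42, against 0.18 and 0.10 for all genes.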

How the data were processed

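Poly(A) RNA of 17 libraries was prepared with either of the NEBNext kits named in the labels' protocols, which do not say which library had which kit. Per the submitters' processing notes, CASAVA, FastQC, Bowtie 0.12.8 and edgeR were used by the authors with mm9. Per the file headers, the authors deposited for each comparison a p-value, a log2 concentration and the log2 of +/+ relative to the group compared, and in the Ras table also an adjusted p-value. No columns of single libraries were used. Here the sign is reversed, so that a positive ratio means above +/+.

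The group level is 2 to the power of the deposited log2 concentration plus or minus 0.5 times the log2 ratio, scaled to 1000000 reads (RPM). Depth came from the step of 1 read between low values. At that depth 81.0% to 100% of values below 20 reads were whole to within 0.1. The deposited p depends on nothing but level and fold, so 1 dispersion per comparison was fitted to it. Rebuilt and deposited z values correlated at r of 0.999 to 0.9996 across genes. These implied errors cover counting and the common dispersion only. Genes of at least 1 RPM were tested (15444 to 17035 per comparison) and adjusted by Benjamini and Hochberg. The authors' deposited edgeR p-value was used for comparisons with +/+. An approximate Wald test with 0.5 reads added per group was used for -/- against +/- and for differences between the sets. For -/- against +/- only the reads of these groups entered, and the dispersion put on either group was the sum of those of both comparisons, the bound reached if +/+ libraries did not vary. An alternative chosen after the data were seen gave each group the dispersion of its own comparison. Depth, dispersion, calls and the Wald test between groups of a set were tried on data simulated like the -/- comparisons with +/+. In these data all genes shared a dispersion. The Wald test between the sets and the alternative with own dispersions were not tried in this way. Python 3.11.15, numpy 2.4.6, scipy 1.17.1 and pandas 2.3.3 were used.

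Alternatives were no filter, a mean of at least 5 RPM, a doubled dispersion, centring on the median gene, no added reads in the Wald tests, the authors' adjusted p-value and a threshold of 0.01. The members, the 65 other pathway genes and the marker lists were chosen with earlier results of these data known. Genes named with values are the called members, those with the highest and lowest ratio, and 6 regulators (E2f1, E2f2, E2f3, E2f7, E2f8 and Rbl1). Other members and the pathway and marker genes named with values were picked after their values were seen. The promoter search has no share in the tests.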

Additional observations from a re-analysis of the deposited data

Results flagged for a closer look

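For 6 of the 46 genes the Wald test of the difference between the genotype ratio in the Ras set and that in the immortalized set gave an adjusted p under 0.05. All 6 calls were lost at a doubled dispersion, 5 of the 6 without the filter on level, which left Orc1, and 4 of the 5 for -/- on centring, which again left Orc1. For -/- against +/+ the Ras ratio was lower by a log2 difference of -1.13 for Orc1, -0.98 for Pole, -0.92 for Prim2, -0.91 for Rrm1 and -0.88 for Rrm2. Rrm2 measured 172 RPM in +/+ and 208 RPM in -/- of the immortalized set, and 251 and 165 RPM in the Ras set. Rrm1 measured 182 and 274 RPM, and 373 and 299 RPM. Prim2 measured 29.1 and 39.6 RPM, and 58.3 and 41.9 RPM. For +/- against +/+ the Ras ratio was higher for Cdc45, by a difference of 1.30. The share of all genes called in these tests was 20.7% for -/- and 13.3% for +/-, so the share of the members was below it in each. The groups also differ between the sets in Xist and Eif2s3y and in mesothelial markers, whose part was not tested.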

How the results depend on the processing

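No called value changed sign under the alternatives run, but this was largely fixed in advance. Only centring on the median gene and leaving out the added reads can change a log2 ratio. The rest change the filter, the error, the adjustment or the threshold. The comparisons of immortalized -/- and +/- and of the USP28 vector with +/+, and immortalized -/- against +/-, kept 0 called members under all alternatives but 1. That 1, chosen after the data were seen, gave each group of the -/- against +/- tests the dispersion of its own comparison, and called 2 members in the immortalized and 17 in the Ras set, where the sum of both dispersions called 0 and 5. A doubled dispersion left 1 of 5 calls in Ras -/-, 2 of 11 in Ras +/-, 1 of 5 in Ras -/- against +/-, and 0 of 5 and 0 of 1 in the differences between the sets for -/- and +/-. A threshold of 0.01 left 3, 6, 3, 0 and 0 in the same order. Without a filter on level there were 3 calls in Ras -/- against +/- and 1 and 0 in the differences for -/- and +/-, and centring left 1 in that for -/-. The cause was not tested. Prim1 in Ras -/-, and Orc1 and E2f7 in Ras +/-, kept their calls under all 6 alternatives. Gins1, Pold2 and Rrm2 in Ras +/- lost theirs under 5, 4 and 3 of them, and E2f1 there had an adjusted p of 0.0475 to 0.23. The authors' adjusted p was among the alternatives that took away these calls of Gins1, Pold2 and Rrm2.

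No paired analysis was possible because the tables hold comparisons of groups and no values of single libraries. Leaving out a replicate was not run for lack of such values, and how far 1 library decides a call is not known.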
